A study of Mus musculus with 9 samples.

Results

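The genes described are the R-spondin receptors Lgr4, Lgr5 and Lgr6, the ubiquitin ligases Rnf43 and Znrf3, and the Wnt target genes Axin2, Nkd1, Ccnd1, Tcf7 and Myc. Members were all probe sets that the array's annotation pairs with exactly 1 gene, that gene being in this list. They came to 19 of the 45037 probe sets in the table and covered 9 of the 10 genes. Tcf7, a transcription factor through which the pathway acts, had no such probe set and was not analysed here. Expression was measured in cells of C57BL/6 mouse stomach on 9 Affymetrix arrays, 3 per group. The isthmus samples were corpus cells labelled Mist1+ Tomato+ taken after Lgr5+ cells had been ablated. The parietal samples were parietal cells, the acid-secreting cells of the stomach, and the chief samples were corpus cells labelled Mist1+ Tomato+ without ablation. Mist1 is a transcription factor found in cells that secrete enzymes, and Tomato a red fluorescent protein. Cells of both Mist1+ groups were collected with a flow cytometer. The sources used here do not give the animals' age, the alleles behind the reporter and the ablation, the time after ablation or the way parietal cells were collected. Whether the 3 samples of a group came from separate animals is not stated, so p-values reflect only how far these samples spread, and that spread may be technical.

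Wnt ligands bind Frizzled receptors with Lrp co-receptors at the cell surface, which stops the breakdown of beta-catenin, and beta-catenin then switches on target genes together with Tcf and Lef factors. Rnf43 and Znrf3 remove Frizzled receptors from the surface, and R-spondins, bound by Lgr receptors, take these ligases away and so raise the response to Wnt. Rnf43, Znrf3, Axin2 and Nkd1 are themselves target genes that dampen the pathway, and Lgr5 is a target gene used as a marker of stem cells in the intestine and of cells at the base of gastric glands. Ccnd1 and Myc are also switched on by many growth signals other than Wnt.

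Each probe set has 1 log2 signal on each array. Signals of different probe sets are not comparable with each other, so levels were compared only between groups. The median of an array lay between 5.80 and 6.70 log2 and stands here for background, since no detection calls were used. Of the 19 probe sets, 11, of 7 genes, passed the filter, a signal over the median of its array on 3 or more of the 9 arrays, and were tested. The other 8 are called dim and are given as values. A probe set can also pass through the arrays of 1 group where it is high, and is then selected for a difference from the other groups. This is stated for the calls it concerns. Among the 25662 probe sets tested, the arrays correlated at r = 0.809 to 0.823 within the isthmus group, 0.845 to 0.865 within the parietal group and 0.767 to 0.795 within the chief group. Chief replicate 3 stood apart in RNA of other cells. Its summed signal of 5 fibroblast markers was 25700, against 61.4 to 403 on the other 8 arrays, its leukocyte sum was 924, against 53.9 to 208, and its sum of haemoglobin genes was 22600, against 2560 to 4000. The summed signal of 6 parietal cell markers was 10700 to 21000 on the isthmus arrays, 54600 to 64700 on the parietal arrays and 14300 to 26400 on the chief arrays, with 5, 6 and 4 to 5 of the 6 above the array median. All 6 were higher on every parietal array than on any other. Slc26a7, an anion exchanger, was below the median on all isthmus and chief arrays, at 4.76 to 5.02 and 5.31 to 6.32 log2, and the proton pump subunits Atp4a and Atp4b were well above it there, at 11.97 to 13.21 and 12.55 to 13.75. The summed signal of 6 chief cell markers was 29000 to 37700 on the isthmus arrays, 17400 to 26800 on the parietal arrays and 70500 to 95100 on the chief arrays. On isthmus and parietal arrays 4 to 5 of the 6 were above the array median, and 5 on chief arrays. Lipf, 1 of the 6, was below the median on all 9 arrays, at 0.17 to 3.41 log2. Bhlha15, the gene of Mist1, lay below the array median on 2 of the 3 isthmus arrays, at 5.03 and 1.34 log2, and at 7.36 on the third. Its probe set thus did not bear out the label Mist1+ on those 2 arrays. Bhlha15 read 10.75, 10.05 and 9.2 on the chief arrays and 6.82, 4.21 and 0 on the parietal arrays. All 3 isthmus arrays were therefore below every chief array and overlapped the parietal arrays. In such bulk samples fewer cells of a type and less RNA per cell cannot be told apart.

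The promoters of the genes called in any comparison are shown where the reference table holds them, so that the stretch in front of each annotated start can be read beside the values below. The table matched 6 of the 10 genes with 8 start sites, and Lgr5, Znrf3, Ccnd1 and Myc had no entry. The sequences are the 250 bases before the start in RefSeq annotation of GRCm38.p6, on the gene's strand. They lie at chr2:109917397-109917646 for Lgr4, chr11:87662837-87663086 and chr11:87699647-87699896 for the first and second start of Rnf43, and chr11:108920099-108920348 for Axin2, all on the plus strand.
Lgr4: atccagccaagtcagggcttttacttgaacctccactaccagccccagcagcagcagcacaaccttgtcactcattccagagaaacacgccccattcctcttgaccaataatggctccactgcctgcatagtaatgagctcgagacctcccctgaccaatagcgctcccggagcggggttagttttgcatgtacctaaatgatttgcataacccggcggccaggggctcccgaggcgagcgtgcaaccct
Rnf43 first start: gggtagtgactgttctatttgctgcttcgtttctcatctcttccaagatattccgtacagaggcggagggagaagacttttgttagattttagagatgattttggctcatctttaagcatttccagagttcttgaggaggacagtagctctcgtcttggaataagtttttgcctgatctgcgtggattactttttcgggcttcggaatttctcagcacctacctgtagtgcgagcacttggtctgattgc
Rnf43 second start: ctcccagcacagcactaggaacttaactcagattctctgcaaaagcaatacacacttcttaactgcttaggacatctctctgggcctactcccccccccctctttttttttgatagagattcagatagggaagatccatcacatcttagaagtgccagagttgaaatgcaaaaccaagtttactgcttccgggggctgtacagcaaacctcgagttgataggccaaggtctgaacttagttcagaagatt
Axin2: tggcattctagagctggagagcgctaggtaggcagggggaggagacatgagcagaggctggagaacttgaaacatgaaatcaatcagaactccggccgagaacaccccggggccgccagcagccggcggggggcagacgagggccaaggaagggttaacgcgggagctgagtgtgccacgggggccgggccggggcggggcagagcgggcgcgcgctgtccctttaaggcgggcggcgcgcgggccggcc
Each window was searched on both strands for a motif of Tcf and Lef factors, the core CTTTG followed by AA, AT, TA or TT, and for the core alone. Neither was found in any of the 8 windows, so no letter is in capitals. Among all 32851 windows of this length, 14.8% held the longer motif and 48.6% held the core. The Axin2 window was 69.2% G and C, the Lgr4 window 55.6%, and the windows of Rnf43 44.4% and 45.2%, with a median of 52.4% over all windows. The letters say nothing about sites outside these 250 bases or about binding of a factor.

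Lgr4, a receptor found in many epithelia, was above the array median in every sample with both probe sets, and well above it throughout only with 1433891_at. Its probe set 1433891_at read 12.51, 12.53 and 12.54 log2 on the isthmus arrays, 12.02, 12.10 and 12.12 on the parietal arrays, and 12.41, 12.40 and 12.08 on the chief arrays. The isthmus arrays were all above the arrays of both other groups, by small margins, and parietal and chief arrays overlapped. The second probe set, 1453765_at, read 8.47, 9.65 and 8.30 on the isthmus arrays, 7.15, 6.87 and 6.10 on the parietal arrays, and 6.76, 8.16 and 8.42 on the chief arrays. Its values on parietal replicate 3 and chief replicate 1 lay close to the medians of these arrays, 5.86 and 6.38. Here too the groups were ordered isthmus, chief, parietal by their means, and the chief arrays overlapped both others.

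Among the Lgr receptors, Lgr5 had the largest differences in means between the chief samples and the other groups. The isthmus samples were taken after Lgr5+ cells had been ablated, and the part of this in their Lgr5 values was not tested. Probe set 1450988_at read 2.93, 4.83 and 5.97 log2 on the isthmus arrays, 4.62, 6.26 and 4.0 on the parietal arrays, and 8.05, 7.54 and 9.36 on the chief arrays. Each chief array was above all 6 others and above its own median, whereas no isthmus array and 1 parietal array exceeded theirs. The dim probe set 1444519_at read 1.56, 4.32 and 2.0 on the isthmus arrays, 4.45, 0.65 and 4.11 on the parietal arrays, and 5.91, 7.66 and 7.64 on the chief arrays. It gave the same order, chief arrays above all others, with 2 of 3 chief arrays above their medians.

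Lgr6, the third receptor of the family, was not above the array median on any of the 9 arrays with either probe set. Probe set 1427028_at lay between 3.51 and 4.82 log2 on the isthmus arrays, 4.27 and 5.22 on the parietal arrays, and 4.80 and 5.24 on the chief arrays. Probe set 1436218_at ranged from 0 to 4.70 on the isthmus arrays, 1.40 to 4.58 on the parietal arrays and 3.54 to 5.03 on the chief arrays. The groups overlapped with both, and no level of Lgr6 can be read from these arrays.

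The ligases were above the median on all arrays. Rnf43 read 9.86, 9.32 and 8.86 log2 on the isthmus arrays, 7.38, 8.18 and 8.23 on the parietal arrays, and 9.12, 9.19 and 8.54 on the chief arrays with 1427008_at. The parietal arrays were below all arrays of both Mist1+ groups, which overlapped. Znrf3 read 8.57, 8.39 and 9.0 on the isthmus arrays, 9.27, 9.11 and 9.82 on the parietal arrays, and 10.45, 8.49 and 8.66 on the chief arrays with 1435608_at. Chief replicate 1 was the high one here, and the chief arrays overlapped both other groups. The isthmus arrays were all below the parietal arrays with this probe set. With 1437646_at, Znrf3 lay between 7.64 and 8.39 on the isthmus arrays, 6.74 and 8.59 on the parietal arrays and 7.70 and 8.97 on the chief arrays, and all groups overlapped.

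Axin2, a scaffold of the complex that breaks down beta-catenin and a feedback target of the pathway, separated the parietal samples from the rest. Probe set 1436845_at read 8.35, 8.22 and 8.61 log2 on the isthmus arrays, 4.89, 4.05 and 4.90 on the parietal arrays, and 8.96, 8.93 and 8.34 on the chief arrays. All parietal arrays were below their medians and at least 3 log2 units under every other array, while isthmus and chief arrays overlapped. The second Axin2 probe set, 1421341_at, was dim and gave another picture, at 2.06, 5.05 and 5.64 on the isthmus arrays, 2.04, 2.67 and 5.46 on the parietal arrays, and 8.16, 5.53 and 7.08 on the chief arrays. No isthmus or parietal array was above its median with it, and the chief arrays overlapped the isthmus arrays but not the parietal ones.

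Nkd1, an inhibitor that binds Dishevelled, was dim with all 4 of its probe sets. With 1440446_at it read 5.57, 4.98 and 6.32 log2 on the isthmus arrays, 2.62, 5.52 and 3.25 on the parietal arrays, and 7.54, 6.58 and 6.65 on the chief arrays. The chief arrays were above all others, 2 of them above their own medians. With 1417278_a_at Nkd1 read 2.52, 5.99 and 6.19 on the isthmus arrays, 3.49, 3.28 and 4.41 on the parietal arrays, and 6.59, 5.91 and 5.69 on the chief arrays, with the parietal arrays below the chief arrays and the isthmus arrays overlapping both. The other 2 probe sets, 1429506_at and 1429507_at, were below the median on all 9 arrays and their groups overlapped.

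Ccnd1, which encodes cyclin D1 and drives entry into the cell cycle, was lowest in the parietal samples by the means of all 3 of its probe sets. With 1448698_at it read 11.06, 11.43 and 11.10 log2 on the isthmus arrays, 9.35, 9.07 and 7.89 on the parietal arrays, and 9.14, 10.34 and 9.57 on the chief arrays. The isthmus arrays were above all others. With 1417420_at the values were 10.23, 10.49 and 10.61 on the isthmus arrays, 8.07, 9.31 and 7.91 on the parietal arrays, and 9.92, 10.09 and 10.73 on the chief arrays. Here the isthmus and chief arrays overlapped and the parietal arrays were below both. With 1417419_at they were 8.18, 8.54 and 8.25 on the isthmus arrays, 5.37, 7.09 and 5.35 on the parietal arrays, and 6.90, 8.62 and 8.08 on the chief arrays. Only the isthmus and parietal arrays did not overlap with this probe set.

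Myc, a transcription factor of cell growth, read 10.51, 10.99 and 10.53 log2 on the isthmus arrays, 9.65, 8.32 and 9.39 on the parietal arrays, and 9.97, 10.20 and 10.18 on the chief arrays with 1424942_a_at. The 3 groups did not overlap, in the order isthmus, chief, parietal, and neighbours in that order were close at their nearest arrays, 10.51 on an isthmus array against 10.20 on a chief array and 9.65 on a parietal array against 9.97 on a chief array.

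**Figure D1:**
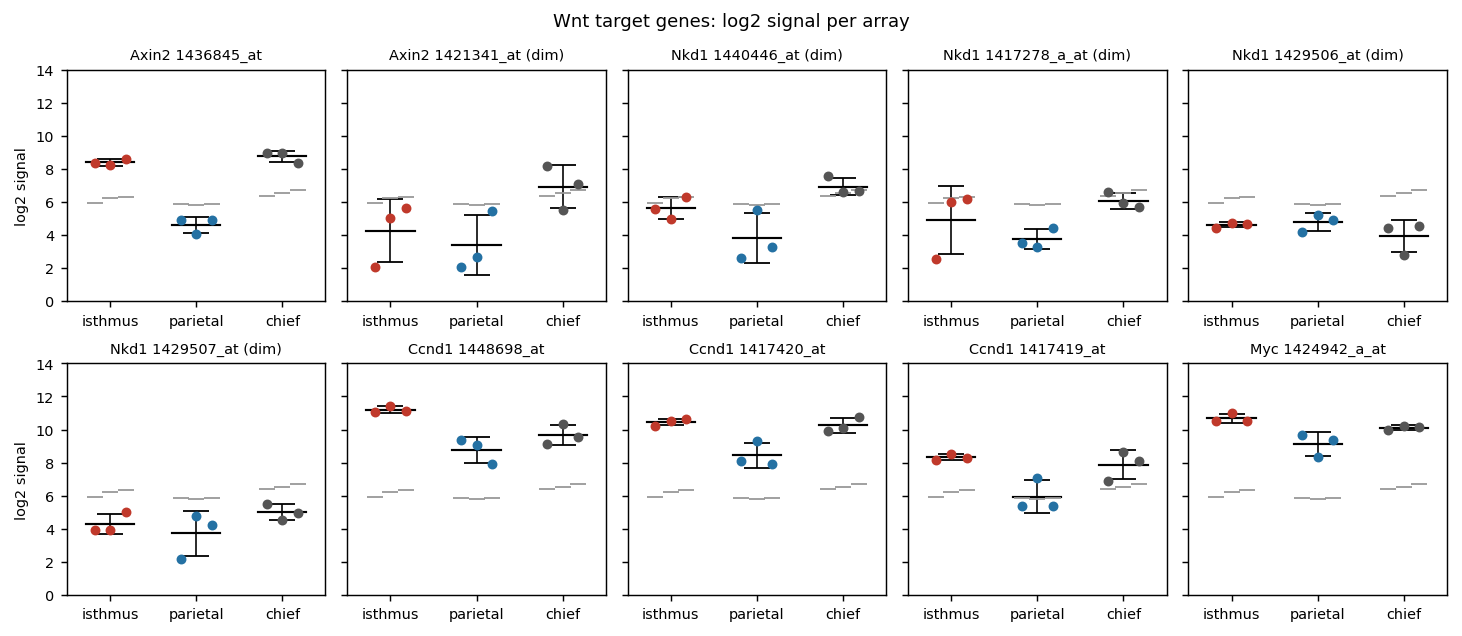
Log2 signal of the 10 probe sets of Axin2, Nkd1, Ccnd1 and Myc on each array, drawn as in the plot of the receptors. The parietal points of Axin2 1436845_at lie at 4.05 to 4.90 against 8.22 to 8.96 in both other groups, and its dim probe set does not show this step between isthmus and parietal arrays.

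The isthmus samples were set against the chief samples to ask how Mist1+ corpus cells differ once Lgr5+ cells have been ablated. None of the 11 tested probe sets passed the limma test, 0 higher and 0 lower, and 2 had an unadjusted p under 0.05, those of Lgr5 and Ccnd1. Over all probe sets tested, 1.19% were called, 0.222% higher and 0.966% lower. In the isthmus samples 18.7% of these calls were higher (77.9% when arrays were centred on their medians). Of the 11, 4 did not overlap between the groups, 3 higher and 1 lower, where 19.2% of all probe sets tested did not, 8.58% higher and 10.6% lower. Centring moved the median difference of all probe sets by 0.38 here, by 0.69 between parietal and chief samples and by -0.32 between isthmus and parietal samples. Lgr5 averaged 4.58 ± 1.54 log2 in the isthmus and 8.32 ± 0.94 in the chief samples (SD, n = 3 each), a log2 difference of -3.74 with a 95% interval of -6.02 to -1.46 (limma adjusted p = 0.113). Set against the array medians as background, the isthmus mean was at least 4.48-fold lower, a bound on the means that leaves out the spread in this interval. The probe set would not have passed the filter without the chief arrays, where it was high. The difference was called with a pseudocount of 64 (adjusted p = 0.042) and with values floored at the array median (adjusted p = 0.0356), and its adjusted p ran up to 0.294 over the other settings. Without chief replicate 3, the array with fibroblast RNA, it was -3.22 (adjusted p = 0.248). The summed chief cell markers were lower in the isthmus samples too, as given above. Neither their part in the Lgr5 result nor that of the ablation of Lgr5+ cells was tested.

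Axin2, Rnf43 and Znrf3, the tested targets that dampen the pathway, did not pass in this comparison. Axin2 averaged 8.39 ± 0.20 log2 in the isthmus and 8.74 ± 0.35 in the chief samples with 1436845_at (SD, n = 3 each), a difference of -0.35 with a 95% interval of -1.66 to 0.96 (limma adjusted p = 0.834), and centring each array on its median turned it to 0.03. Its dim probe set averaged 4.25 ± 1.92 in the isthmus and 6.92 ± 1.32 in the chief samples (SD, n = 3 each), so the 2 probe sets disagree in size. Rnf43 differed by 0.40 (95% interval -0.61 to 1.40), and Znrf3 by -0.55 (-1.68 to 0.58) and -0.52 (-1.84 to 0.80) with its 2 probe sets. Whether any of these differences differs from that of Lgr5 was not tested.

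Ccnd1 averaged 11.20 ± 0.20 log2 in the isthmus and 9.68 ± 0.61 in the chief samples with 1448698_at (SD, n = 3 each). This 2.85-fold difference had a 95% interval of 0.58 to 2.45 log2 and missed the threshold (limma adjusted p = 0.116, and 0.0554 to 0.295 over the alternatives). The other Ccnd1 probe sets differed by 0.20 (-0.71 to 1.10) and 0.46 (-1.05 to 1.97). Myc differed by 0.56 (-0.25 to 1.37). The 2 probe sets of Lgr4 differed by 0.23 (-0.09 to 0.55) and 1.03 (-0.37 to 2.42). Summed signals of 4 dividing cell markers were 16200 to 20500 on the isthmus arrays and 8040 to 18500 on the chief arrays, chief replicate 1 being the lowest. The sums of 5 surface pit cell markers did not overlap, at 67400 to 80500 on the isthmus and 104000 to 129000 on the chief arrays. Those of 5 endocrine cell markers did, at 16400 to 35600 on the isthmus and 31700 to 61600 on the chief arrays. These endocrine sums swing with Gast, the gastrin gene. Gast read 11.38, 3.66 and 14.07 log2 on the isthmus arrays and 14.48, 3.65 and 13.84 on the chief arrays. Ghrl and Sst were lower on every isthmus array than on any chief array, and Hdc and Chga overlapped. The part of all these markers in the member values was not tested.

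Parietal cells, another cell type of the same glands, were set against the chief samples next. Of the 11 tested probe sets, 3, of Lgr5, Axin2 and Ccnd1, fell in the parietal samples and 0 rose, where 10.6% of all probe sets tested fell and 18.2% were called in either direction. Groups did not overlap for 5 of the 11, each lower, beside 35.5% of all probe sets tested, 20.2% lower and 15.3% higher. Of all calls, 41.7% were higher in the parietal samples (79.4% when arrays were centred). Axin2 averaged 4.61 ± 0.49 log2 in the parietal and 8.74 ± 0.35 in the chief samples (SD, n = 3 each), at least 7.50-fold lower (log2 difference -4.13, SE 0.61, limma adjusted p = 0.000501, and at most 0.00337 under each alternative run). Ccnd1 fell 3.52-fold with 1417420_at (adjusted p = 0.00881), a call lost when arrays were centred on their medians (adjusted p = 0.066, difference -1.12). Its other probe sets differed by -1.93 (95% interval -3.44 to -0.42, adjusted p = 0.0747) and -0.91 (-1.85 to 0.02, adjusted p = 0.169). Lgr5 was at least 5.02-fold lower (log2 difference -3.36, SE 1.06, adjusted p = 0.0422). Its call was lost without any 1 of the 3 chief arrays or without parietal replicate 1 or 3, with adjusted p-values of 0.0609 to 0.16. It was also lost with no filter (0.0545), quantile normalization (0.067), centring (0.0722) and no intensity trend in the fit (0.0508). The Lgr5 probe set was above the array median on 4 arrays, 3 of them chief arrays. Without the chief group, where it was high, it would not have passed the filter, and a filter of 6 arrays left it untested.

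The remaining members did not pass. Rnf43 differed by -1.02 (95% interval -2.02 to -0.02, limma adjusted p = 0.154) and Myc by -1.0 (-1.80 to -0.19, adjusted p = 0.0835). The Lgr4 probe sets differed by -0.22 (-0.53 to 0.10) and -1.07 (-2.47 to 0.32), the first turning to 0.48 when arrays were centred. Znrf3 differed by 0.20 (-0.93 to 1.33) and -0.64 (-1.96 to 0.68), the first turning to -0.01, -0.15 and -0.07 without parietal replicate 3, chief replicate 2 or chief replicate 3 and the second to 0.05 when arrays were centred. The dim probe sets of Axin2 and of Nkd1 (1440446_at) differed by -3.53 and -3.13 log2, at least 2.12-fold each against the array medians. Dividing cell markers summed to 3940 to 5450 on the parietal and 8040 to 18500 on the chief arrays. Of these, Mki67, Top2a and Birc5 differed by -4.4, -5.27 and -3.21 log2, and Stmn1, high in both groups, by -0.26. The 5 endocrine cell markers summed to 226 to 588 on the parietal and 31700 to 61600 on the chief arrays. The part of either set of markers in the differences was not tested.

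The isthmus samples were last set against the parietal samples. Of the 11 tested probe sets, 8, of Lgr4, Rnf43, Axin2, Ccnd1 and Myc, rose in the isthmus samples and 0 fell, where 11.2% of all probe sets tested rose and 20.3% were called in either direction. Groups did not overlap for 9 of the 11, 8 higher and 1 lower, beside 38.6% of all probe sets tested, 20.8% higher and 17.7% lower. Of all calls, 55.4% were higher in the isthmus samples (37.1% when arrays were centred). This comparison and the one before share the parietal arrays. Axin2 was at least 5.88-fold higher (8.39 ± 0.20 log2 in the isthmus and 4.61 ± 0.49 in the parietal samples, SD, n = 3 each, limma adjusted p = 0.000765). Ccnd1 rose 5.38-fold, 4.04-fold and at least 4.16-fold with 1448698_at, 1417420_at and 1417419_at (adjusted p = 0.00156, 0.00419 and 0.0284). Myc rose 2.94-fold (adjusted p = 0.0101). Axin2, Myc and the first 2 probe sets of Ccnd1 were called under each alternative that was run.

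The other calls lay close to the threshold. Rnf43 rose 2.67-fold (limma adjusted p = 0.0471), a call that ended when any 1 array other than chief replicate 3 was left out (adjusted p = 0.0501 to 0.164). Lgr4 rose 1.36-fold with 1433891_at (adjusted p = 0.0471) and 4.29-fold with 1453765_at (adjusted p = 0.0355). Both calls ended without any 1 of the isthmus or parietal arrays, the first also without chief replicate 2 (adjusted p = 0.0501 to 0.13 and 0.0505 to 0.146). Centring arrays on their medians ended all 3 of these calls (Rnf43 0.159, Lgr4 0.709 and 0.0638) and left a difference of 0.13 for the first Lgr4 probe set. Testing all probe sets with no filter ended them too (Rnf43 0.0754, Lgr4 0.0759 and 0.0587). Quantile normalization ended the calls of Rnf43 (0.108) and Lgr4 1453765_at (0.0751). Flooring at the array median and the fit of the 2 groups alone ended that of Rnf43 (0.0571 and 0.0559). A fit with no intensity trend and a pseudocount of 64 ended that of Lgr4 1433891_at (0.238 and 0.0508). The third Ccnd1 probe set lost its call without any isthmus array or parietal replicate 1 or 3 (0.0633 to 0.0939), with quantile normalization (0.0595) and with centring (0.0514). Lgr5 differed by -0.38 with a 95% interval of -2.66 to 1.89 (adjusted p = 0.843), both groups being mostly below their array medians. Znrf3 differed by -0.75 (-1.88 to 0.38) and 0.12 (-1.20 to 1.44), the second turning to -0.14 with quantile normalization and -0.20 with centring. Dividing cell markers summed to 16200 to 20500 on the isthmus and 3940 to 5450 on the parietal arrays. Of these, Mki67, Top2a and Birc5 differed by 4.71, 6.38 and 3.96 log2, and Stmn1 by 0.74. The 5 endocrine cell markers summed to 16400 to 35600 on the isthmus and 226 to 588 on the parietal arrays, and 2 mucous neck cell markers to 11000 to 13100 and 2750 to 7040 on the same arrays. Their part in these differences was not tested.

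**Figure D2:**
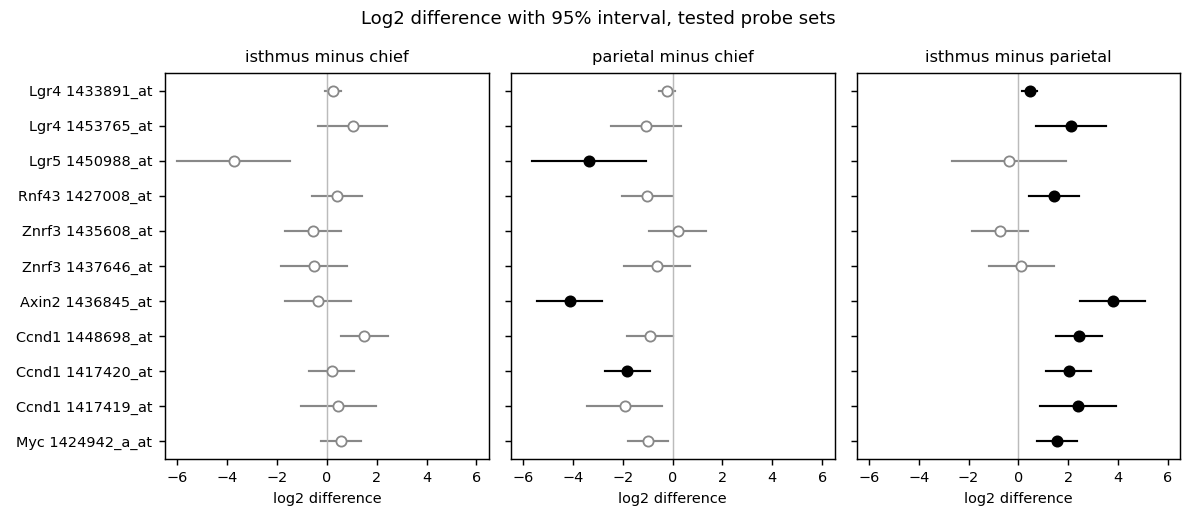
Log2 difference of each of the 11 tested probe sets in the 3 comparisons (points) with its 95% interval from limma (lines). Filled points passed an adjusted p of 0.05 over all probe sets tested, 0, 3 and 8 of them from left to right. Lgr5 is the lowest in the left panel, and Axin2 lies at -4.13 and 3.78 in the others.

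Other genes of the pathway were read from 7 lists holding 106 genes, of which 103 had a probe set and 62 were tested, each by its brightest probe set. Between isthmus and chief samples, 0 of the 62 rose and 1 fell by limma, 11 had an unadjusted p under 0.05, and the median difference was -0.22, beside -0.03 over all probe sets tested. The one that fell was Sostdc1, a secreted antagonist of Wnt and BMP signals. It read 4.01, 5.32 and 2.79 log2 on the isthmus arrays and 12.28, 11.14 and 12.35 on the chief arrays, at least 54.6-fold lower (limma adjusted p = 0.000933). Sostdc1 passed the filter only through the chief arrays, where it was high. Of the 2 tested antagonists, the other, the Dkk receptor Kremen1, differed by -0.55. Of 15 tested genes of the destruction complex and its transducers, 0 passed, with a median of 0.11. Ctnnb1, which encodes beta-catenin, differed by -0.37 (adjusted p = 0.0826), and Tnks2, a tankyrase that marks Axin for breakdown, by -0.04. Of 13 nuclear effectors 0 passed, with a median of -0.65 and 2 at an unadjusted p under 0.05, each lower in the isthmus samples. The 2 brightest, the factor Tcf7l2 and the corepressor Ctbp1, differed by 0.17 and 0.60, in the direction opposite to that median. Of 12 further target genes 0 passed, with a median of -0.06. Jun differed by -0.52 and Sox9 by -0.23.

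Receptors and ligands gave no call between isthmus and chief samples. Of 11 tested receptors 0 passed, with a median of 0.23, and the co-receptor Lrp6 differed by -0.17 and Fzd4 by 0.42. Of 8 tested genes of Wnt ligands and their release 0 passed, with a median of -0.35, and the carrier Wls differed by 0.00 and the acyltransferase Porcn by -0.95. The R-spondins, the ligands of the Lgr receptors, were mostly dim. Only Rspo4 was tested, at 2.86, 8.52 and 2.65 log2 on the isthmus arrays, 4.85, 6.23 and 2.60 on the parietal arrays, and 7.98, 8.79 and 4.11 on the chief arrays. All groups overlapped, and it passed in no comparison.

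Between parietal and chief samples, 2 of the 62 genes rose and 10 fell by limma, with a median of -0.37, beside -0.17 over all probe sets tested, of which 7.59% rose and 10.6% fell. Of the 12 further target genes, 6 fell and 1 rose, with a median of -1.69. Tnfrsf19 (Troy) averaged 4.99 ± 1.04 log2 in the parietal and 8.64 ± 0.94 in the chief samples (SD, n = 3 each), at least 6.71-fold lower, and Smoc2, a matricellular protein, was at least 4.66-fold lower (adjusted p = 0.0128 and 0.027). Prox1, a homeobox factor, was at least 2.87-fold lower (adjusted p = 0.0361). Olfm4, a secreted glycoprotein known as a marker of intestinal stem cells, rose at least 7.36-fold, to 9.41 ± 0.39 in the parietal against 5.27 ± 1.13 in the chief samples (SD, n = 3 each, adjusted p = 0.00827). Jun, Sox9 and Cd44 differed by -0.82, -0.91 and -3.16 (adjusted p = 0.00484, 0.0216 and 0.0345). Centring ended each of these calls (0.714, 0.581 and 0.0659), as did a fit with no intensity trend (0.0769, 0.0837 and 0.0817). When single arrays were left out Olfm4 and Jun kept their calls each time, and Sox9 and Cd44 lost theirs without 4 of the 9. Tnfrsf19, Smoc2 and Prox1 lost theirs without 3 to 6 of the 9 arrays. These were parietal replicate 3 and chief replicates 2 and 3 for Tnfrsf19 (up to 0.0546), any parietal or chief array for Smoc2 (up to 0.079), and any parietal array or chief replicate 1 or 2 for Prox1 (up to 0.144). Prox1 also lost its call with quantile normalization (0.0652) and with no intensity trend (0.0619). Smoc2 and Prox1 would not have passed the filter without the chief arrays, nor Olfm4 without the parietal arrays, the groups where they were high.

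Upstream of the targets, Sostdc1 was at least 68.0-fold lower in the parietal samples (limma adjusted p = 6.52e-05). It was above the array median on the chief arrays alone and passed the filter only through them. Fzd4, a Frizzled receptor, rose 2.82-fold, to 12.16 ± 0.34 log2 in the parietal against 10.67 ± 0.75 in the chief samples (SD, n = 3 each, adjusted p = 0.00839), and Ryk, a Wnt-binding receptor, fell 4.96-fold (adjusted p = 0.0112). Of 13 nuclear effectors 2 fell, Bcl9l, a beta-catenin coactivator, by 3.36-fold (adjusted p = 0.00567) and Tcf7l1 by at least 3.94-fold (adjusted p = 0.049). The call of Tcf7l1 was kept only without parietal replicate 2 when single arrays were left out (0.0539 to 0.16 without any other). Its call was also lost with no filter (0.0687), quantile normalization (0.105), the 2 groups alone (0.0561) and a replicate block in the fit (0.0541). Tcf7l1 too would not have passed the filter without the chief arrays. Centring arrays on their medians ended the calls of Ryk, Bcl9l, Tcf7l1 and Smoc2 (adjusted p = 0.0605, 0.0569, 0.127 and 0.0541), and a fit with no intensity trend ended that of Fzd4 (0.0602). Of 15 genes of the destruction complex and its transducers 0 passed, as did 0 of 8 genes of Wnt ligands and their release, with medians of -0.11 and -1.41 and 1 gene each at an unadjusted p under 0.05. Among these, Ctnnb1 differed by -0.18, Tnks2 by 0.23, Wls by 0.44 and Porcn by -1.73.

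Between isthmus and parietal samples, 3 of the 62 genes rose and 3 fell by limma, with a median of 0.26, beside 0.10 over all probe sets tested, of which 11.2% rose and 9.03% fell. Cd44, an adhesion receptor, read 9.83, 8.96 and 9.15 log2 on the isthmus arrays and 5.77, 4.24 and 3.92 on the parietal arrays, at least 11.1-fold higher (adjusted p = 0.00372, and up to 0.0202 without single arrays). Of 11 receptors, the co-receptor Lrp5 rose 3.92-fold and Fzd5 2.01-fold, whereas Fzd4 fell 2.11-fold and Lrp6 1.41-fold (adjusted p = 0.0234, 0.0204, 0.0396 and 0.0499). Each of these 4 calls was lost without some single arrays, isthmus replicates 1 and 3 and parietal replicates 1 and 3 for Lrp5 (up to 0.0819), isthmus replicate 2 and parietal replicates 1 and 2 for Fzd5 (up to 0.0941), isthmus replicates 1 and 2 and parietal replicates 1 and 3 for Fzd4 (up to 0.146), and any isthmus array, parietal replicates 1 and 3 or chief replicate 3 for Lrp6 (up to 0.184). Quantile normalization ended the calls of Lrp5 (0.0665), Fzd4 (0.0582) and Lrp6 (0.181), and centring those of Lrp5 (0.0664) and Fzd5 (0.144). A fit with no intensity trend ended those of Fzd4 (0.133), Lrp6 (0.237) and Fzd5 (0.0845). With no filter and with a replicate block in the fit, Fzd4 (0.0653 and 0.0571) and Lrp6 (0.0815 and 0.0697) lost their calls. The ligand Wnt9a was at least 1.46-fold lower (adjusted p = 0.0313). Its call was lost without isthmus replicate 2 or parietal replicate 1 or 2 (up to 0.165). The call was also lost with a replicate block in the fit (0.0501) and with values floored at the array median (0.246, difference -0.86). Wnt9a would not have passed the filter without the parietal arrays, nor Cd44 without the isthmus arrays. Here 0 of 15 genes of the destruction complex and its transducers, 0 of 13 nuclear effectors and 0 of 2 antagonists passed, with 2, 3 and 0 at an unadjusted p under 0.05. Ctnnb1 differed by -0.19, Tnks2 by -0.27, Tcf7l2 by 0.34, Ctbp1 by -0.19, Kremen1 by 0.33 and Sostdc1 by -0.13.

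**Figure D3:**
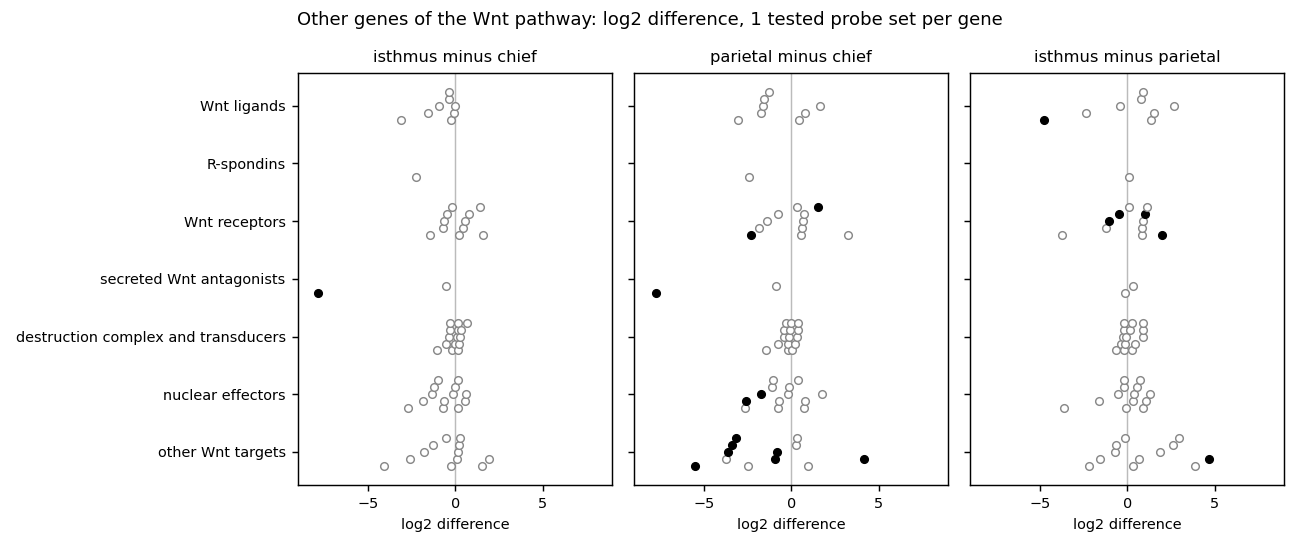
Log2 difference of the 62 tested genes of the 7 other Wnt pathway lists, 1 point per gene, in the 3 comparisons. Filled points passed an adjusted p of 0.05, 1, 12 and 6 from left to right. The far left point among the antagonists is Sostdc1, and the filled points among other targets in the middle panel lie below 0 except Olfm4.

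The genes with the profile most like that of Lgr5 were sought among 11005 tested genes, by the root mean square difference between log2 profiles over the 9 arrays once each profile's mean had been taken off. The 5 nearest were Gm15545 (0.683 log2), Syne4 (0.761), Mpp3 (0.786), Smoc2 (0.813) and Sema7a (0.839). Smoc2, also listed as a Wnt target, averaged 3.96 log2 in the isthmus, 4.63 in the parietal and 8.06 in the chief samples, and Syne4 averaged 6.28 in the isthmus, 6.72 in the parietal and 10.13 in the chief samples. Smoc2 did not pass between isthmus and chief samples (log2 difference -4.10, limma adjusted p = 0.0639). Among the members, Znrf3 and Lgr4 were the nearest at 2.0 log2 each and Ccnd1 the farthest at 2.39, and Znrf3 ranked 4022 of 11005. This measure places a gene that hardly moves, such as Lgr4 at 12.02 to 12.54 log2, nearer than one that moves otherwise. The distances of the members therefore do not show a profile shared with Lgr5. Genes compared in this way share the same arrays, and the distances are a description with no test.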

How the data were processed

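Total RNA was biotin-labelled and hybridised to 9 Affymetrix mouse arrays, 3 per group. The authors deposited MAS5 signals on a log2 scale, per the submitters' processing notes for MAS5 and from the values for the scale. The sources used here give no MAS5 version, log step or floor. The trimmed mean signal was 496 to 497 on every array, and 1.99% to 3.91% of values were 0. Precision is limited by how few arrays there are, and no detection calls were used. Groups and replicate numbers came from the sample titles. No 2 arrays were near-identical, the smallest median absolute difference being 0.74 log2.

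Of 45037 probe sets, 34945 name 1 gene, 932 several and 9160 none in the platform annotation. The 25662 above their array's median on at least 3 arrays were fitted with limma 3.58.1 in R 4.3.3 (lmFit, contrasts, eBayes with an intensity trend, 6 residual degrees of freedom), with 1 mean per group, two-sided tests and Benjamini-Hochberg adjustment over all of them, called at an adjusted p under 0.05. The code was tested on simulated data. Intervals are 95%. A bound ("at least N-fold") raises each value of the dim group that lies under its array's median to that median. It compares group means and does not include the spread between arrays. Alternatives were the filter, quantile normalization, median centring, pseudocounts of 16 and 64, flooring at the array median, 1 probe set per gene, no trend, only the 2 groups compared, a replicate block and each array left out. Named were all members, in each pathway list up to 4 called genes with the largest difference (the 2 brightest where none was called), and the 5 genes nearest to Lgr5. Members and lists were chosen with earlier results of these data known. Same-numbered samples of different groups did not deviate together (r = -0.013 to 0.04 over 9 pairs, and -0.04 to 0.017 over 18 pairs of different numbers), so the numbers were not taken as pairs. Promoters came from RefSeq.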

Additional observations from a re-analysis of the deposited data

How the results depend on the processing

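Between isthmus and chief samples the number of probe sets called higher was 57, and it was 22 with no filter, 190 with median centring, 86 and 110 with pseudocounts of 16 and 64, 100 with flooring, 5 with no trend, 22 with the 2 groups alone, 30 with the replicate block, and 0 to 50 without single arrays. The number called lower was 248, and it was 128 with no filter, 149 with quantile normalization, 54 with centring, 407 with a pseudocount of 64, 139 with 1 probe set per gene, 27 with no trend, 123 with the 2 groups alone, and 33 to 327 without single arrays. Between parietal and chief samples 1948 were called higher, against 5230 with centring, 1173 with 1 probe set per gene, 1166 with no trend and 1223 to 1951 without single arrays, and 2726 lower, against 1355 with centring, 1491 with 1 probe set per gene and 1898 to 2639 without single arrays. Between isthmus and parietal samples 2882 were called higher, against 1691 with 1 probe set per gene and 2079 to 3049 without single arrays, and 2318 lower, against 1339 with 1 probe set per gene, 1523 with no trend and 1536 to 2493 without single arrays. With 1 probe set per gene fewer probe sets were tested. The causes of the other shifts were not tested.

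Member probe sets called numbered 0 between isthmus and chief samples and 1 with a pseudocount of 64 or with flooring. They numbered 3 between parietal and chief samples, 1 with centring and 2 to 4 without single arrays. They numbered 8 between isthmus and parietal samples, 5 with no filter, with quantile normalization and with 1 probe set per gene, 4 with centring, and 4 to 8 without single arrays. With the replicate block 2 member probe sets were called between parietal and chief samples and 6 between isthmus and parietal samples, Lgr5 (adjusted p = 0.053), Lgr4 1433891_at (0.0625) and Rnf43 (0.0687) losing their calls. Among the brightest or called probe set of each tested member, the differences that turned sign under the alternatives were the following. Between isthmus and chief samples Znrf3 was 0.08 without chief replicate 1 (-0.90 to 0.08 without single arrays) and Axin2 0.03 with centring. Between parietal and chief samples Lgr4 was 0.48 with centring, and Znrf3 -0.01, -0.15 and -0.07 without parietal replicate 3, chief replicate 2 and chief replicate 3 (-0.15 to 0.83 without single arrays). Between isthmus and parietal samples Lgr5 was 0.16 with flooring, 0.44 without isthmus replicate 1 and 0.27 without parietal replicate 2 (-1.08 to 0.44 without single arrays). The second Znrf3 probe set, 1437646_at, was followed under the scalings, pseudocounts and flooring but not with single arrays left out, and turned to 0.05 with centring between parietal and chief samples and to -0.14 with quantile normalization and -0.20 with centring between isthmus and parietal samples. Lgr6, Nkd1 and the second probe sets of Lgr5 and Axin2 lay mostly below the array medians, which limits what their differences show.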
